A study of Mus musculus with 12 samples.

Results

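A set of 5 genes that mark the striped organization of cerebellar Purkinje cells (PCs) were followed: Aldoc, Plcb3 and Slc1a6 of zebrin-positive PCs, Ebf2 of zebrin-negative PCs, and Hspb1 of a subset of PCs. They were chosen as a list of known band genes, with earlier results of these data known. Shares of members set beside shares of all genes are therefore descriptions. All 5 were found by symbol among the 56941 genes of the count tables. They passed the filter on low counts that left 20341 genes to test. RNA came from the cerebellum of 12 mice, with 3 mice in each of 4 groups. WT sedentary and WT exercise mice were C57BL/6J littermates, and SCA1 sedentary and SCA1 exercise mice carried the Atxn1 154Q/2Q knock-in, in which an expanded glutamine tract sits in a single copy of the endogenous Atxn1 gene. Atxn1 is therefore altered in every cell that uses it and not in PCs alone. Exercise mice were housed singly with a running wheel for 12 weeks, from 4 to 16 weeks of age, and sedentary mice lived in groups with no wheel, so that running and housing cannot be told apart. Per the paper, wheels were taken out before behavioral testing, and tissue was collected after the last test. The study used mice of both sexes, and the labels do not give the sex of a mouse. The questions were whether band genes differ between genotypes and whether wheel running moves them.

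PCs look alike under the microscope but form parasagittal bands that differ in their molecules. The antigen zebrin II is aldolase C, a glycolytic enzyme encoded by Aldoc, and PCs that hold it alternate with PCs that lack it. Zebrin-positive PCs also hold the phospholipase PLCβ3 (Plcb3) and the glutamate transporter EAAT4 (Slc1a6), whereas zebrin-negative PCs use PLCβ4 (Plcb4) and depend on the transcription factor EBF2. The small heat shock protein HSP25 (Hspb1) marks a further set of bands. Aldoc is not restricted to PCs, since astrocytes and Bergmann glia use it strongly. In bulk tissue, fewer cells of a type and less RNA per cell cannot be told apart, and neither the width nor the position of a band was measured.

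On GRCm39, Aldoc (ENSMUSG00000017390) lies at chr11:78213619-78218889 on the plus strand and Plcb3 (ENSMUSG00000024960) at chr19:6929693-6953838 on the minus strand. Slc1a6 (ENSMUSG00000005357) lies at chr10:78616181-78650614, Ebf2 (ENSMUSG00000022053) at chr14:67470736-67668394 and Hspb1 (ENSMUSG00000004951) at chr5:135916760-135918417, all on the plus strand. Counts cover the exons of each gene. Aldoc, Slc1a6 and Hspb1 overlap no annotated gene. Plcb3 overlaps Ppp1r14b on the opposite strand, and Ebf2 overlaps 5 antisense noncoding genes. Counting was by strand, so that reads of these partners were kept apart from the members.

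The RefSeq promoter table (GRCm38.p6) held windows for 4 members, and Ebf2 had no entry. The 250 bases before the start are shown for Plcb3, Slc1a6 and Hspb1, with motif matches on either strand in capitals. Plcb3 and Slc1a6 were lower in SCA1 mice without overlap within each activity group, although edgeR called neither with all libraries. The groups of Hspb1 overlapped. The Aldoc windows are not shown. The Plcb3 window lies at chr19:6969815-6970064 on the minus strand, that of Slc1a6 at chr10:78780246-78780495 and that of Hspb1 at chr5:135887669-135887918, both on the plus strand.
Plcb3: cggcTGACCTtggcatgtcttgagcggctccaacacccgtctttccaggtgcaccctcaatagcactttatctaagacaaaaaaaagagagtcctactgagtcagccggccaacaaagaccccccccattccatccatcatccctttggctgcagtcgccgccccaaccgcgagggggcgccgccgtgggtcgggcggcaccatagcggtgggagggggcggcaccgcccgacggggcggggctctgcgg
Slc1a6: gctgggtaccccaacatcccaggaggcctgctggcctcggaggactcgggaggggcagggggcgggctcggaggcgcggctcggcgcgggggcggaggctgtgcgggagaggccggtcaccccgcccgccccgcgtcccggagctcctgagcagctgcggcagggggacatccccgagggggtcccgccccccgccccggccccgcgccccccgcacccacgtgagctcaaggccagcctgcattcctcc
Hspb1: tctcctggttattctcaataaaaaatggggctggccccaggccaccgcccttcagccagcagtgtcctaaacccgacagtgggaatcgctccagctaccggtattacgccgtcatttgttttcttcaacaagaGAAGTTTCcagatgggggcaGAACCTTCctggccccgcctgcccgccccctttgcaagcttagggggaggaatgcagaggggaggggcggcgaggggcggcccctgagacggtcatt
Of 4 motifs searched, the heat shock element core GAANNTTC stood in the Hspb1 window at 2 places, from -117 to -110 and from -97 to -90 relative to the start, and 6.69% of 32851 such windows of all genes held it. The AGGTCA core bound by RORA, a nuclear receptor of PCs, stood in the Plcb3 window from -246 to -241 on the opposite strand and in 14% of all windows. The octamer TGAATGAA bound by CIC, a partner of ataxin-1, was in 1.08% of all windows and the TATA box TATAAA in 12.4%, and neither was in a window of a member. The Slc1a6 window and both Aldoc windows held none of the 4 motifs. The Slc1a6 window was 78.8% G and C, against 64.4% for Plcb3, 59.2% for Hspb1 and a median of 52.4% over all windows. The matches are descriptions of the sequence and were not tied to binding.

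The libraries held 20556802 to 32127508 reverse-strand counts, which gave 12164 to 42507 counts for Aldoc, 2085 to 4442 for Slc1a6, 817 to 2280 for Plcb3, 156 to 465 for Ebf2 and 51 to 126 for Hspb1. Libraries of mouse 16 (SCA1 sedentary) and mouse 55 (SCA1 exercise) stood apart. Their reads mapped to several places in 6.38% and 6.33% of cases, against 2.08% to 3.46% in the other 10. A list of 7 brainstem genes, among them Hoxb3, Hoxb5 and Chat, summed to 245 CPM (counts scaled by library size) in mouse 16 and 177 CPM in mouse 55, against 31.9 to 56.5 CPM in the others. The 7 granule cell markers summed to 2867 and 3678 CPM in these mice, against 4793 to 5750 CPM in the others. The 15 PC markers were all measured and summed to 5430 to 9990 CPM, so that PC RNA was present in every library, and mouse 16 was the lowest. Astroglial markers were highest in mice 55 and 16, at 5951 and 5808 CPM against 3852 to 4601 CPM. Both mice are SCA1 and lie in different activity groups, so the genotype comparisons of the members are given with and without them. Other results are not all given both ways. The part of these differences in the results was not tested.

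**Figure D1:**
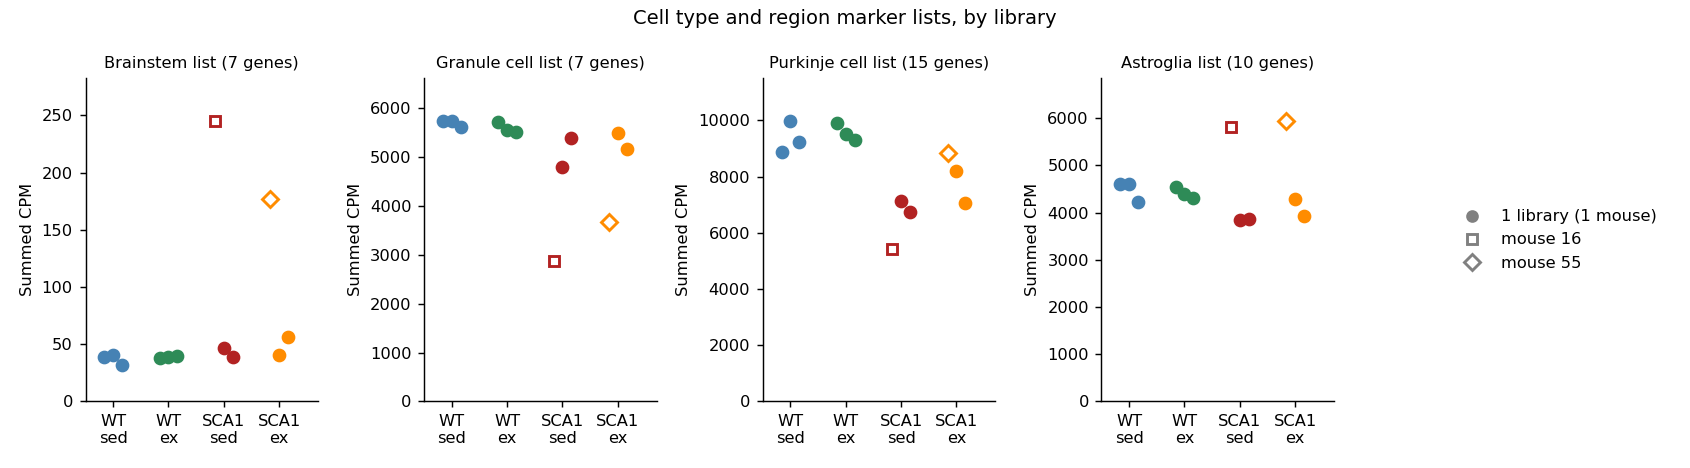
Summed CPM (y axis) of 4 lists of marker genes in each library, by group (x axis, sed sedentary, ex exercise). Filled points are single mice and open symbols mark mice 16 and 55, which have the 2 highest brainstem sums (245 and 177 CPM) and the 2 lowest granule cell sums (2867 and 3678 CPM).

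Aldoc was the most abundant member. Aldoc was at 1341, 1031 and 867 CPM in WT sedentary mice and at 1096, 949 and 931 CPM in WT exercise mice. It was at 928, 692 and 585 CPM in SCA1 sedentary mice and at 1339, 735 and 631 CPM in SCA1 exercise mice. The values of 928 and 1339 CPM belong to mice 16 and 55, and the other 4 SCA1 mice, at 585 to 735 CPM, all lay below the lowest WT mouse at 867 CPM. With every library kept, the genotypes overlapped in both activity groups. Group means were 1080.0 ± 241 CPM, 992 ± 90.4 CPM, 735 ± 175 CPM and 902 ± 382 CPM in the same order (SD, n = 3).

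Plcb3, the phospholipase that acts downstream of metabotropic glutamate receptors in zebrin-positive PCs, had the smallest SD relative to its mean within each WT group. It was at 72.0, 66.0 and 68.0 CPM in WT sedentary mice and at 78.6, 75.7 and 76.9 CPM in WT exercise mice. It was at 37.6, 50.2 and 39.3 CPM in SCA1 sedentary mice and at 73.6, 44.2 and 36.1 CPM in SCA1 exercise mice. Neither SCA1 group overlapped the WT group of the same activity, although mouse 55, at 73.6 CPM, came close to the WT exercise mice and lay above all WT sedentary mice. The means were 68.6 ± 3.04, 77.1 ± 1.44, 42.4 ± 6.86 and 51.3 ± 19.8 CPM, with the 4 groups in the same order (SD, n = 3).

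Slc1a6, whose product clears glutamate at PC spines, was at 140.2, 137 and 117 CPM in WT sedentary mice and at 133, 128 and 121 CPM in WT exercise mice. It was at 80.4, 106 and 100.3 CPM in SCA1 sedentary mice and at 116, 118 and 101 CPM in SCA1 exercise mice. Mouse 16 had the lowest value of all, and mouse 55 was within the range of its group. SCA1 mice lay below WT mice within each activity group. Across activity groups, the highest SCA1 exercise mouse, at 118 CPM, passed the lowest WT sedentary mouse, at 117 CPM.

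Ebf2, needed for the zebrin-negative identity of PCs in development, was at 10.5, 14.0 and 11.1 CPM in WT sedentary mice and at 11.8, 11.1 and 12.7 CPM in WT exercise mice. It was at 11.8, 8.11 and 7.51 CPM in SCA1 sedentary mice and at 18.5, 9.92 and 9.17 CPM in SCA1 exercise mice. The values of 11.8 and 18.5 CPM in SCA1 mice were those of mice 16 and 55. The other 4 SCA1 mice lay below the lowest WT mouse, as for Aldoc. With all libraries, the genotypes overlapped in both activity groups.

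Hspb1, a chaperone, had the lowest CPM, and its groups overlapped in every comparison. It was at 3.85, 2.95 and 1.92 CPM in WT sedentary mice and at 3.86, 3.59 and 2.99 CPM in WT exercise mice. It was at 4.45, 2.97 and 2.69 CPM in SCA1 sedentary mice, with mouse 16 the highest, and at 3.45, 3.25 and 2.44 CPM in SCA1 exercise mice. The WT sedentary mean of 2.91 CPM had an SD of 0.963 CPM (n = 3), the widest relative spread of the 5 members in that group.

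**Figure D2:**
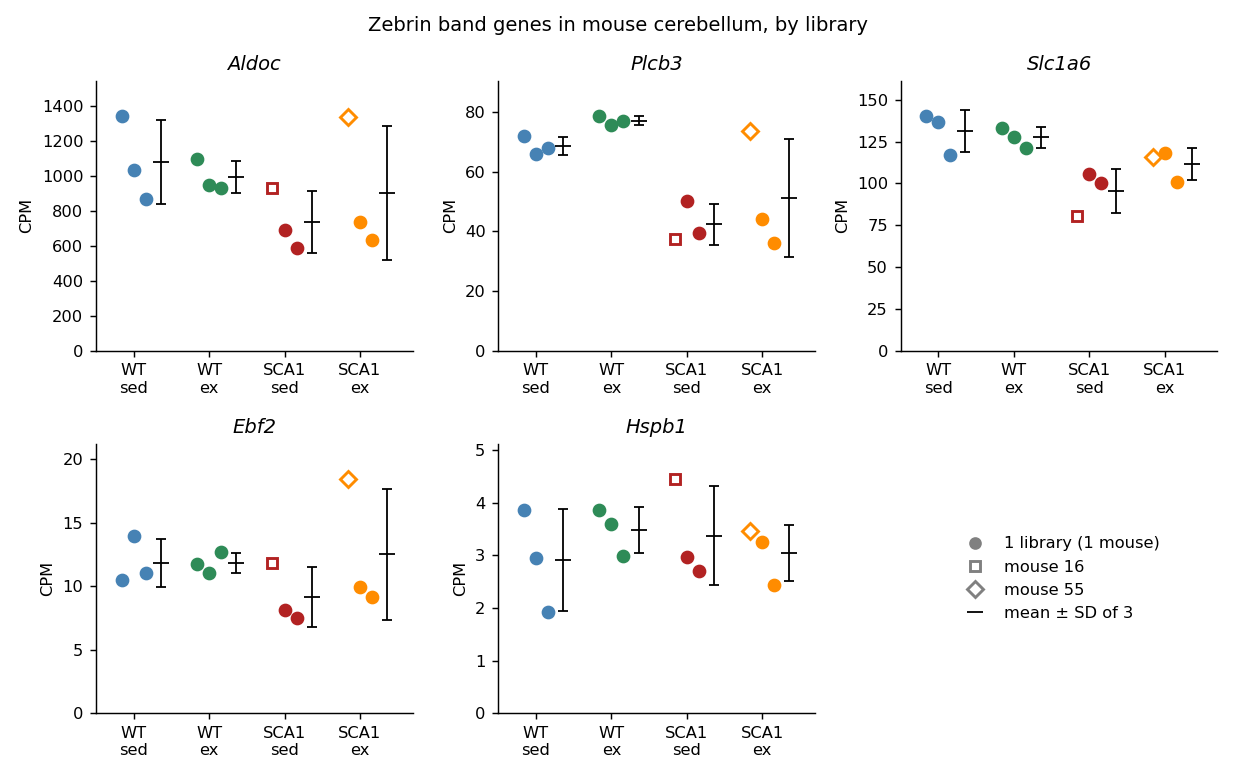
CPM (y axis) of each of the 5 genes in every library, by group (x axis, sed sedentary, ex exercise), with mean ± SD of 3 mice. In SCA1 exercise mice, the open diamond of mouse 55 sits at 1339 CPM for Aldoc, 73.6 CPM for Plcb3 and 18.5 CPM for Ebf2, above the other 2 mice of its group.

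Per kilobase of exon, the 5 genes kept the same order in all 12 libraries. Aldoc was highest, at a median of 199 CPM per kilobase over 12 libraries, followed by Slc1a6 at 50.0, Plcb3 at 8.48, Hspb1 at 2.99 and Ebf2 at 1.48 CPM per kilobase. The smallest ratio of neighbours within any library was 1.12, for Plcb3 over Hspb1, and that ratio reached 4.67. Over all libraries, the ranges of Aldoc (125 to 287), Slc1a6 (34.1 to 59.5) and Plcb3 (4.56 to 9.95 CPM per kilobase) did not overlap, whereas that of Hspb1 (1.84 to 4.26) overlapped that of Ebf2 (1.00 to 2.46).

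In SCA1 sedentary against WT sedentary mice, 4 of the 5 members had lower estimates, and none was called at an adjusted p under 0.05 with an absolute log2 fold change (log2FC) over 0.5. Across all genes tested, 7 (0.0344%) were called, by edgeR's quasi-likelihood test with Benjamini-Hochberg adjustment. Plcb3 had a log2FC of -0.70 ± 0.21 (SE), or 0.617-fold (edgeR, adjusted p = 0.296). Slc1a6 had a log2FC of -0.46 ± 0.12, or 0.726-fold (edgeR, adjusted p = 0.231). These 2 of 5 members passed an unadjusted p of 0.05 in the lower direction, as did 4.55% of all genes, and the same 2 did not overlap between groups, as for 5.76% of all genes in that direction. The log2FC was -0.55 ± 0.27 for Aldoc (edgeR, adjusted p = 0.517), -0.37 ± 0.26 for Ebf2 (adjusted p = 0.666) and 0.22 ± 0.28 for Hspb1 (adjusted p = 0.834). By two-sided exact permutation, Plcb3 and Slc1a6 gave p = 0.1, the smallest that 3 mice against 3 allow. DESeq2 called none of the 5 either.

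With mice 16 and 55 left out, 2 members were called lower in SCA1 sedentary mice, against 1% of all genes called in either direction. Aldoc fell by 0.74 on the log2 scale (SE 0.16, edgeR adjusted p = 0.0425), and Plcb3 fell by 0.60 (SE 0.12, edgeR adjusted p = 0.0312). Ebf2 had a log2FC of -0.58 ± 0.16 (edgeR, adjusted p = 0.0813) and Slc1a6 of -0.33 ± 0.10 (edgeR, adjusted p = 0.0982). The estimate of Hspb1 moved from 0.22 to -0.02 ± 0.28. The group then holds 2 SCA1 sedentary mice. Because all 4 groups share the estimate of the spread, mouse 55 affects these p values without being in either group. With mouse 55 alone left out, Plcb3 stayed at a log2FC of -0.69 while its adjusted p was 0.0663 (edgeR).

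The exercise groups gave the same comparison in mice that share no library with the sedentary ones. No gene of the 20341 was called in SCA1 exercise against WT exercise mice (0%, edgeR), while 596 had an unadjusted p under 0.05, and DESeq2 called 3 genes and no member. Plcb3 had a log2FC of -0.59 ± 0.21 (edgeR, adjusted p = 0.960). It was the only 1 of 5 members with an unadjusted p under 0.05, and 1.48% of all genes passed that in the lower direction. Slc1a6 had a log2FC of -0.19 ± 0.12 (edgeR, adjusted p = 0.960). Both genes were lower in each SCA1 exercise mouse than in any WT exercise mouse, as were 6.92% of all genes. Aldoc (-0.14 ± 0.26), Ebf2 (0.08 ± 0.26) and Hspb1 (-0.19 ± 0.29) had intervals that crossed 0 (95%). Once mice 16 and 55 were left out, Plcb3 fell by 0.93 on the log2 scale, to 0.525-fold (SE 0.12, edgeR adjusted p = 0.00447), as the single member called, against 0.181% of all genes. The other members were at -0.53 ± 0.16 (Aldoc, edgeR adjusted p = 0.341), -0.21 ± 0.10 (Slc1a6), -0.30 ± 0.16 (Ebf2) and -0.27 ± 0.28 (Hspb1). Mice 122 and 198 are then the only SCA1 exercise mice.

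**Figure D3:**
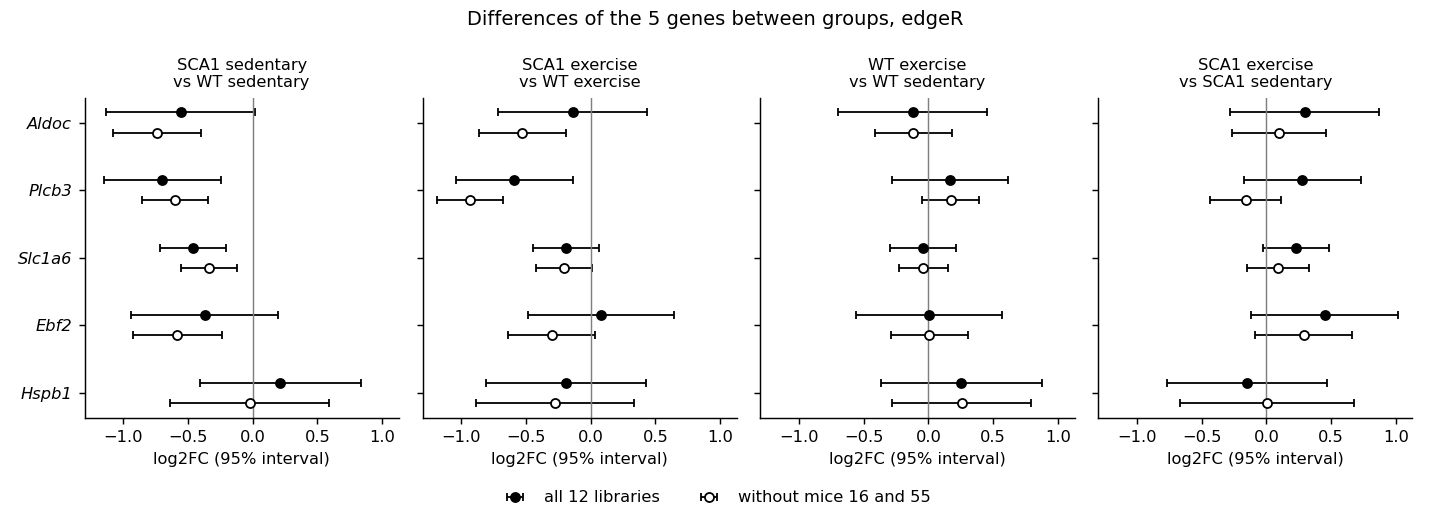
log2FC of the 5 genes with 95% intervals (x axis) in the 2 genotype and the 2 exercise comparisons, from edgeR. Filled points use 12 libraries and open points leave out mice 16 and 55, and without them the Plcb3 estimate in SCA1 exercise mice moves from -0.59 to -0.93.

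With the activity groups joined, 6 SCA1 mice were compared with 6 WT mice, which reuses the libraries of both comparisons above. None of the 5 members was called by edgeR, against 24 of all genes (0.118%), and DESeq2 called Plcb3 (log2FC -0.64, adjusted p = 0.00749). With mouse number bands as a block, edgeR called Plcb3 (-0.77, adjusted p = 0.0332) and Aldoc (-0.58, adjusted p = 0.0313), against 84 of 20341 genes. The band of numbers under 100 holds only mice 16 and 55 and no WT mouse. This setting is therefore not separate from leaving those mice out. In edgeR, Plcb3 had a log2FC of -0.64 ± 0.15 (adjusted p = 0.145) and Slc1a6 of -0.33 ± 0.08 (adjusted p = 0.188). These 2 of 5 passed an unadjusted p of 0.05 in the lower direction, as did 4.25% of all genes. The same 2 had p = 0.005 in a two-sided exact permutation within activity groups, the smallest it can give, and 4.86% of all genes passed 0.05 there in the lower direction. The permutation p was 0.105 for Aldoc, 0.365 for Ebf2 and 0.93 for Hspb1.

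Among the 10 libraries other than mice 16 and 55, Plcb3 was at 36.1 to 50.2 CPM in 4 SCA1 mice and at 66.0 to 78.6 CPM in 6 WT mice. Aldoc was at 585 to 735 CPM in the SCA1 mice against 867 to 1341 CPM, and Ebf2 at 7.51 to 9.92 CPM against 10.5 to 14.0 CPM. These 3 of 5 members lay below all WT mice, as did 2.06% of all genes. edgeR then called Plcb3 (log2FC -0.76 ± 0.08, adjusted p = 0.000461) and Aldoc (log2FC -0.63 ± 0.11, adjusted p = 0.0104), against 0.693% of all genes called. Ebf2 (-0.44 ± 0.11, edgeR adjusted p = 0.0833) and Slc1a6 (-0.27 ± 0.07, edgeR adjusted p = 0.0959) were not called. Ebf2, the zebrin-negative gene, thus had an estimate in the same direction as the 3 zebrin-positive genes.

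Wheel running moved no member past the threshold. In WT exercise against WT sedentary mice, edgeR called 0 genes (0%), 955 genes or 4.69% had an unadjusted p under 0.05, and DESeq2 called 63 genes. No member was among either. Plcb3 was higher in every WT exercise mouse than in any WT sedentary mouse, at 75.7 to 78.6 against 66.0 to 72.0 CPM, as were 10.1% of all genes. Its log2FC was 0.17 ± 0.21 (edgeR, adjusted p = 0.958), and with edgeR on these 2 groups only it was 0.18 (adjusted p = 0.214), where 150 genes but no member were called. The summed choroid plexus list separated the same groups, at 19.5 to 422 CPM in WT sedentary and 832 to 1931 CPM in WT exercise mice, and its part in the result was not tested. The other estimates were -0.12 ± 0.26 for Aldoc, -0.04 ± 0.12 for Slc1a6, 0.00 ± 0.26 for Ebf2 and 0.25 ± 0.28 for Hspb1.

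In SCA1 exercise against SCA1 sedentary mice, edgeR called 0 genes (0%), 2.17% of genes had an unadjusted p under 0.05 and DESeq2 called 1 gene, none of them a member. The groups overlapped for all 5 members, whereas 4.5% of all genes did not overlap in either direction. Slc1a6 had a log2FC of 0.23 ± 0.12 (edgeR, adjusted p = 0.999), Ebf2 of 0.45 ± 0.26, Aldoc of 0.29 ± 0.26, Plcb3 of 0.28 ± 0.21 and Hspb1 of -0.15 ± 0.29. In the 10 other libraries, the estimate of Plcb3 changed sign, to -0.16 ± 0.13, and Slc1a6 was at 0.09 ± 0.11, Aldoc at 0.10 ± 0.17 and Ebf2 at 0.29 ± 0.17. The 95% interval of Plcb3 then ran from -0.44 to 0.12. The only SCA1 mice in that fit are mice 122 and 198 (exercise) and mice 194 and 195 (sedentary).

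Over both genotypes, exercise called no gene in edgeR (0%), 3.54% of genes had an unadjusted p under 0.05, and DESeq2 called 6 genes but no member. The permutation p of the members ran from 0.265 for Plcb3 to 0.78 for Aldoc by two-sided exact permutation within genotypes, and 3.76% of all genes had a p under 0.05. The interaction of genotype and exercise called no gene either (0%, with 3.78% at an unadjusted p under 0.05), while DESeq2 called 2 genes and no member. It was 0.27 ± 0.16 for Slc1a6, 0.45 ± 0.37 for Ebf2 and 0.42 ± 0.37 for Aldoc. It was 0.11 ± 0.29 for Plcb3 and -0.40 ± 0.40 for Hspb1 on the log2 scale. When mice 16 and 55 were left out, the interaction of Plcb3 was -0.33 ± 0.16 (edgeR, adjusted p = 0.362), and the exercise estimates over both genotypes ran from -0.01 for Aldoc to 0.15 for Ebf2.

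The members were set beside markers of PCs in general. Of 15 PC markers, 14 had lower estimates in SCA1 sedentary mice, with a median log2FC of -0.52 against 0.02 over all genes, and 2 were called: Pcp4 (-1.17) and Calb1 (-0.82). In the fit without mice 16 and 55, the median was -0.45 and 7 of 15 were called. With all libraries, the log2FC was -0.46 for Slc1a6 and -0.70 for Plcb3, and in the 10 other libraries it was -0.33 and -0.60. All 7 granule cell markers had lower estimates too, with a median of -0.42 and none called, and 6 of 7 had lower estimates with a median of -0.19 in the 10 other libraries. Foxp2 was the PC marker with the highest log2FC, at 0.03 ± 0.26.

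Relative to the PC markers of the same library, no SCA1 mouse lay below the WT range of Slc1a6. The log2 ratio of Slc1a6 to the mean of the list was -0.36 ± 0.12 in sedentary and -0.34 ± 0.03 in exercise WT mice, against -0.22 ± 0.10 in sedentary and -0.26 ± 0.11 in exercise SCA1 mice (SD, n = 3). Leaving out mice 16 and 55, 4 SCA1 mice lay at -0.23 to -0.16, above the 6 WT mice at -0.49 to -0.25. In that fit over both activity groups, the list had a median log2FC of -0.41, against -0.27 for Slc1a6. A gene that fell less than the list rises in this ratio, and the share of all genes that do so was not found. The ratio of Plcb3 to the list was -1.30 ± 0.09, -1.06 ± 0.03, -1.39 ± 0.14 and -1.45 ± 0.36 in the 4 groups. Its highest SCA1 value, -1.03, was that of mouse 55, and without mice 16 and 55 it ran from -1.71 to -1.24 in SCA1 mice against -1.40 to -1.02 in WT mice. With the activity groups joined, the genotypes overlapped for this ratio with or without those 2 mice. Within the exercise groups, mouse 55 lay inside the WT range of -1.08 to -1.02, and the other SCA1 mice lay below it at -1.59 and -1.71. The Ebf2 ratio was -3.83 ± 0.18, -3.76 ± 0.12, -3.61 ± 0.45 and -3.48 ± 0.39, and overlapped between all groups. Mice 16 and 55 had its highest values, at -3.09 and -3.03. The other 4 SCA1 mice were at -3.79 ± 0.10, against -3.80 ± 0.15 in the 6 WT mice (mean ± SD).

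Aldoc was set against 10 astroglial markers, since glia also make it. The log2 ratio of Aldoc to the mean of that list was 2.05 ± 0.20 in WT sedentary and 2.04 ± 0.08 in WT exercise mice, and 1.67 ± 0.10 in sedentary and 1.76 ± 0.25 in exercise SCA1 mice (SD, n = 3). All 3 SCA1 sedentary mice (1.55 to 1.75), mouse 16 among them, lay below the lowest WT mouse at 1.90, while mouse 55 lay at 2.04. The astroglial list itself had a median log2FC of -0.15 in SCA1 sedentary mice, with none of 10 called, and was lowest for Gdf10 (-0.55 ± 0.22), made by Bergmann glia. In the 10 other libraries the median was -0.35, and 9 of 10 had lower estimates. These data do not separate Aldoc of PCs from Aldoc of glia.

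**Figure D4:**
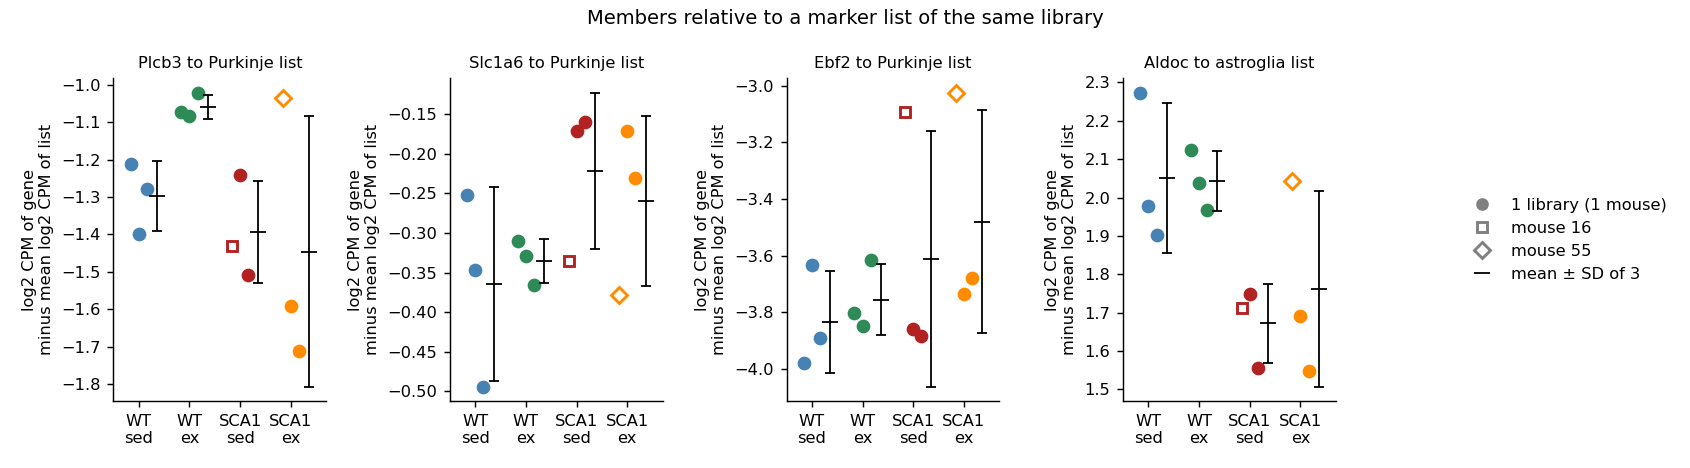
log2 CPM of a gene minus the mean log2 CPM of a marker list in the same library (y axis), by group (x axis, sed sedentary, ex exercise), with mean ± SD of 3 mice. Without the open symbols, SCA1 mice lie at -0.23 to -0.16 for Slc1a6, above all WT mice, and at 1.55 to 1.75 for Aldoc, below all WT mice.

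Other genes of the bands were counted by band. Of 6 further zebrin-positive genes, 3 had lower and 3 higher estimates in SCA1 sedentary mice, and none was called. Kctd12, an auxiliary subunit of GABAB receptors, was lowest at -0.63 ± 0.17 (edgeR, adjusted p = 0.258), and Nt5e, an ectonucleotidase, was highest at 0.45 ± 0.20 (edgeR, adjusted p = 0.488). With mice 16 and 55 left out, 4 of 6 had lower estimates in sedentary mice (median -0.10) and 5 of 6 over both activity groups (median -0.16). In the latter, Kctd12 was the gene of this list that was called (-0.59 ± 0.12, edgeR adjusted p = 0.0229).

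Of 4 further zebrin-negative genes, all had lower estimates in SCA1 sedentary mice, with a median log2FC of -0.30. None of them was called with all libraries. With mice 16 and 55 left out, all 4 had lower estimates in sedentary mice (median -0.22), and 1 was called lower, against 1% of all genes called. Over both activity groups, all 4 were then lower (median -0.13) and none was called.

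Plcb3 was set against Plcb4, the phospholipase of the opposite bands. The log2 ratio of Plcb3 to Plcb4 was -2.64 ± 0.16 in sedentary and -2.51 ± 0.08 in exercise WT mice, against -3.00 ± 0.33 in sedentary and -2.99 ± 0.67 in exercise SCA1 mice (SD, n = 3). Mouse 55 had the highest ratio of all, at -2.22, and the other 5 SCA1 mice lay below all WT mice. Without mice 16 and 55, 4 SCA1 mice were at -3.44 to -2.86 and 6 WT mice at -2.76 to -2.43. Plcb4 had a log2FC of -0.32 ± 0.15 in SCA1 sedentary mice, and of -0.13 ± 0.09 without those 2 mice. Across bands, the ratio of Slc1a6 to Ebf2 (3.25 to 3.73 in WT mice, 2.65 to 3.73 in SCA1 mice) and that of Aldoc to Ebf2 (6.19 to 6.99 in WT mice, 6.09 to 6.40 in SCA1 mice) overlapped between the genotypes.

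Both phospholipases act in a pathway in which metabotropic glutamate receptors of PCs activate Gq proteins, phospholipase C and the IP3 receptor. Of 9 genes of this pathway, Plcb3 among them, 8 had lower estimates in SCA1 sedentary mice, with a median log2FC of -0.43 and none called. They ran from Plcb3 (-0.70) to Gna11 (0.05 ± 0.09). With mice 16 and 55 left out, 9 of 9 were lower with a median of -0.27, and Plcb3 was among the genes called. Itpr1 and Homer3 of this pathway also stand in the PC list.

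Hspb1 was compared with 12 other heat shock genes. None was called in SCA1 sedentary mice, and the median log2FC was 0.03, from Hspa1b (-0.10 ± 0.36) to Hsph1 (0.38 ± 0.24). Their mean log2 CPM was highest in mouse 16, at 5.61, which also had the highest Hspb1 value, and lowest in an SCA1 sedentary mouse at 4.74. Without mice 16 and 55, 11 of 12 had lower estimates, with a median of -0.19 and none called. Over both activity groups, Hspb8, a small heat shock protein, was then called lower (-0.57 ± 0.13, edgeR adjusted p = 0.0484).

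Relatives of the members from the same gene families were counted separately. Of 15 paralogs, 14 were tested, and Slc1a7 was not, with 12 counts in all. None was called in SCA1 sedentary mice with all libraries. Of the glutamate transporters, Slc1a3, the Bergmann glial transporter, was at -0.35 ± 0.11 (edgeR, adjusted p = 0.322), while Slc1a2 was at 0.13 ± 0.23 and Slc1a1 at 0.11 ± 0.16. Aldoa, of the aldolases, was at 0.06 ± 0.16. Of the phospholipases, Plcb1 was at 0.14 ± 0.09 and Plcb2, with 325 counts in all, at 1.04 ± 0.31. Ebf4 was higher in every SCA1 sedentary mouse than in any WT sedentary mouse, at 0.77 ± 0.17 (edgeR, adjusted p = 0.162), and was called without mice 16 and 55 (0.87 ± 0.17, edgeR adjusted p = 0.0305). With all libraries, Ebf1 (0.10 ± 0.20) and Ebf3 (0.17 ± 0.26) had intervals that crossed 0, as did Hspb6 (0.02 ± 0.20), Hspb8 (0.07 ± 0.39) and Cryab (-0.04 ± 0.33). Several of these values depended on mice 16 and 55. Without them, 8 of 14 paralogs had lower estimates, with a median of -0.11. Cryab was then at -0.63 ± 0.15 (edgeR, adjusted p = 0.0567) and Hspb8 at -0.61 ± 0.18 (edgeR, adjusted p = 0.0969). Slc1a2 was at -0.20, Slc1a1 at -0.14 and Aldoa at -0.15, while Ebf1 was at 0.31 ± 0.14.

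The genes most like each member were sought among 13007 genes by Pearson r of log2 CPM over the 12 libraries, which share differences of tissue and genotype. The nearest to Slc1a6 were Lhx1 (r = 0.96), a PC transcription factor, Max (0.95) and Car8 (0.95), a protein of PCs. The nearest to Plcb3 were Mdfi (0.98), Gm39465 (0.98) and Sbk1 (0.97). The nearest to Aldoc was Atp1b2 (0.96), a sodium pump subunit of glia, followed by Ipo5 (0.95) and Slc20a1 (0.95). Ebf2 was nearest to Cables1 (0.91), an unnamed gene (0.90) and Asgr1 (0.89), and Hspb1 to Ctbs (0.89), Ankrd40 (0.87) and Fmn1 (0.85).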

How the data were processed

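Total RNA of the cerebellum was sequenced after rRNA depletion with a directional kit. Per the labels, the authors checked reads with FastQC 0.11.9, trimmed with fastp 0.24.0 and aligned to GRCm39 with STAR 2.7.10a, which wrote the deposited raw counts of read pairs per gene. The fourth column, reverse-strand counts, was used. The study changed the library preparation of 2 samples that fell short of the RNA integrity number all others passed. The labels do not name these samples. Genes were filtered with filterByExpr and scaled by TMM in edgeR 4.0.16 (R 4.3.3), and its quasi-likelihood model held 1 mean for each of 4 groups. A gene was called when its absolute log2FC passed 0.5 and its p, adjusted after Benjamini and Hochberg, was below 0.05. For log2 CPM, 2 prior counts were added, and all CPM rest on TMM-scaled libraries. Intervals are 95%. Permutation used all 400 divisions within strata, where the smallest p is 0.005. Of 56941 genes, 56323 matched GENCODE M39 by Ensembl ID.

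The members and all lists were chosen with earlier results of these data known. The named genes were the members, their paralogs, list genes called in any comparison, the lowest and highest of a list in the comparison described, and the 3 genes most like each member among those with an average log2 CPM of at least 2. The ratio of Plcb3 to the PC list was added after the values were seen. Alternatives were DESeq2 1.42.0, RLE factors, genes with at least 1 count, unstranded counts, edgeR on the 2 groups compared, bands of mouse numbers (under 100, 100 to 150, over 150) as a block, Y-linked expression as a covariate, mice 16 and 55 left out, and each mouse left out in turn. Some genes of the lists are not reported here by name, although the counts and medians of the lists include them.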

Additional observations from a re-analysis of the deposited data

Results flagged for a closer look

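Reads on the strand opposite to that of the members were not used in the comparisons. In 3 of 15 pairs of a member and a group, they were higher in every library of the group than in any WT sedentary library, as in 3.91% of such pairs over 17897 tested genes with a read on that strand. The lowest WT exercise library had 3.59 CPM for Plcb3, which overlaps Ppp1r14b on that strand, and WT sedentary libraries had at most 3.47 CPM. The lowest SCA1 exercise library had 0.667 CPM for Slc1a6 against at most 0.641 CPM, and the lowest SCA1 sedentary library had 0.241 CPM for Hspb1 against at most 0.189 CPM, where 5 to 12 read pairs stood behind each SCA1 sedentary value. No test was run on these values.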

How the results depend on the processing

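No paired analysis was possible because the groups share no mouse number. Of the member estimates with 1 mouse left out, 397 kept their direction and their side of the threshold, 1 passed it and 22 changed sign. Of those under other settings, 241 kept both, 9 passed the threshold and 15 changed sign. Each cause was not tested.

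Without mice 16 and 55, the members called went from 0 to 2 in SCA1 against WT sedentary, to 1 in SCA1 against WT exercise and to 2 over both activity groups, and those past the permutation went from 2 to 4. Over both activity groups, 1 member was called by DESeq2, 1 with no filter on low counts and 2 (Aldoc and Plcb3) with mouse number bands as a block. Leaving out 1 mouse gave 0 to 1 called, with Plcb3 called without mouse 55, and 2 to 4 past the permutation, with 4 without mouse 55. The share of all genes past the permutation was found only with all libraries, at 4.86% in the lower direction. The permutation counts with mice left out therefore cannot be set against all genes. Signs changed without mice 16 and 55 for Hspb1 in SCA1 against WT sedentary (-0.024) and over both activity groups (-0.15), Plcb3 (-0.16) and Hspb1 (0.0053) in SCA1 exercise against SCA1 sedentary, Ebf2 in SCA1 against WT exercise (-0.30), the Plcb3 interaction (-0.33) and Aldoc with exercise over both genotypes (-0.011). With the bands, they changed for Slc1a6 in WT exercise against WT sedentary (0.0052), Ebf2 in SCA1 against WT exercise (-0.25) and Hspb1 over both activity groups (-0.030). Ebf2 in WT exercise against WT sedentary changed sign with DESeq2 (-0.0033), RLE factors (-0.0034), no filter (-0.0059), unstranded counts (-0.080) and the Y-linked covariate (-0.053).

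With 1 mouse left out, estimates that changed sign ranged as follows. In SCA1 against WT sedentary, Hspb1 ranged from -0.041 to 0.46. In WT exercise against WT sedentary, Aldoc ranged from -0.26 to 0.062, Slc1a6 from -0.12 to 0.0040 and Ebf2 from -0.081 to 0.15. In SCA1 exercise against SCA1 sedentary, Aldoc ranged from -0.088 to 0.50, Plcb3 from -0.066 to 0.46 and Hspb1 from -0.28 to 0.11. In SCA1 against WT exercise, Aldoc ranged from -0.53 to 0.045 and Ebf2 from -0.30 to 0.24. The Plcb3 interaction ranged from -0.24 to 0.29. Over both activity groups, Hspb1 ranged from -0.11 to 0.13, and with exercise over both genotypes Aldoc ranged from -0.10 to 0.19 and Hspb1 from -0.059 to 0.18.

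Over all genes, edgeR called 7 in SCA1 against WT sedentary, DESeq2 201, edgeR without a filter 76, with the bands 55 and without mice 16 and 55 205. The same settings gave 0, 63, 45, 33 and 64 in WT exercise against WT sedentary, and 24, 179, 125, 84 and 142 in SCA1 against WT. A fit of the 2 groups alone called 0 in SCA1 against WT sedentary and 150 in WT exercise against WT sedentary. Hspb1 had 51 to 126 counts per library and Ebf2 156 to 465, the fewest of the members.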
